A study of Mus musculus with 18 samples.

Results

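The genes described here encode nuclear-coded parts of the mitochondrial respiratory complexes III and IV, cytochrome c and the ATP synthase. They were taken by symbol, from genes whose names begin with Uqcr, Atp5, Cox5, Cox6b, Cox6c, Cox7b, Cox7c or Cox followed by a number from the assembly factor series, with Cyc1 and Cycs. A gene was measured through probe sets annotated to it alone, and where it had several, the one whose mean across the 18 arrays was highest stood for it. This gave 37 of the 15491 genes measured, and 6 further protein-coding genes with such symbols (Atp5g3, Cox14, Cox7b, Cox7c, Uqcrfs1 and Uqcrh) were not analysed here. Among the 37 are 5 subunits of the F1 head of ATP synthase, 11 of its membrane part and stalks, 7 of complex III, 1 cytochrome c gene, 6 subunits of complex IV and 7 of its assembly factors. All 37 are counted in every comparison, since no filter on low values was used.

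The cells were primary hepatocytes of C57BL/6J mice, infected for 48 hours with an adenovirus and then given TNFalpha at 2 ng per mL or its PBS vehicle for 2 hours. One virus carried PGC-1a1, another PGC-1a4, and the control virus, called vector below, carried neither. All 3 viruses also express GFP from a reading frame of its own, so every group, control included, held virus and GFP. The 6 groups, each of 3 Affymetrix arrays, were thus vector with PBS, PGC-1a1 with PBS, PGC-1a4 with PBS, vector with TNF, PGC-1a1 with TNF and PGC-1a4 with TNF.

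PGC-1alpha is a transcriptional coactivator, and its full-length product, PGC-1a1, is known for raising mitochondrial gene expression through nuclear receptors of the ERR family and the nuclear respiratory factors. Alternative splicing of the gene also yields the shorter PGC-1a4, first described in muscle. In the inner mitochondrial membrane complex III passes electrons to cytochrome c, complex IV passes them from cytochrome c to oxygen, and ATP synthase makes ATP from the proton gradient that this transport builds. Hepatocytes are rich in mitochondria and use this ATP for glucose and urea synthesis.

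The values are log2 expression levels. Over all probe sets, 2 arrays of a group correlated at 0.990 to 0.996 (Pearson's r). The medians of single arrays ran from 7.24 to 7.32 in the 9 PBS arrays and from 7.04 to 7.10 in the 9 TNF arrays, so treatment and array set cannot be told apart, whereas the viruses can be compared within each set. The labels do not say whether cultures or animals differ between the 3 arrays of a group. The p-values therefore rest on array-to-array spread, which may be technical, and 3 arrays a group limit the precision. The 3 probe sets of Ppargc1a, the gene both viruses carry, differed from vector by -0.29 to 0.19 on the log2 scale, none past the threshold in any comparison with vector. Their position against the viral sequence was not given in the sources used here. These probe sets therefore leave the labels unchecked. Of 8 hepatocyte markers 3 were measured. Albumin (Alb), near the top of the scale with group means of 15.55 to 15.68, was not called against vector with either virus, while Apoa1 and Hnf4a were called in some comparisons, with their values given beside the results below. Every difference below comes from limma, as log2 difference ± SE with n = 3 arrays a group, and a gene is called changed at a Benjamini-Hochberg adjusted p of 0.05 over all 15491 genes.

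PGC-1a1 raised most of these genes under PBS. Against vector 30 of the 37 were higher and 1 was lower, where 7.88% of all genes were higher and 4.11% lower. Their median difference was 0.83, against -0.01 over all genes. On the 3 PGC-1a1 arrays the median distance from the vector mean was 0.79, 0.69 and 0.84, while the 3 vector arrays lay at -0.09, 0.08 and 0.01. In 30 members all PGC-1a1 arrays lay above all vector arrays, as in 13.7% of all genes. In bulk samples of this kind fewer cells of a type and less RNA per cell cannot be told apart. Beside this rise, 2 of the 3 measured hepatocyte markers were lower with PGC-1a1 (Apoa1 by -0.55 and Hnf4a by -0.33), and their part in the result was not tested. Of markers of other cells, 1 of 7 for stellate cells was lower, 1 of 6 for endothelial cells was higher, and none of 3 for macrophages, 4 for cholangiocytes and 4 for lymphocytes and neutrophils was called. Leaving out any single array left 30 or 31 members called.

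**Figure D1:**
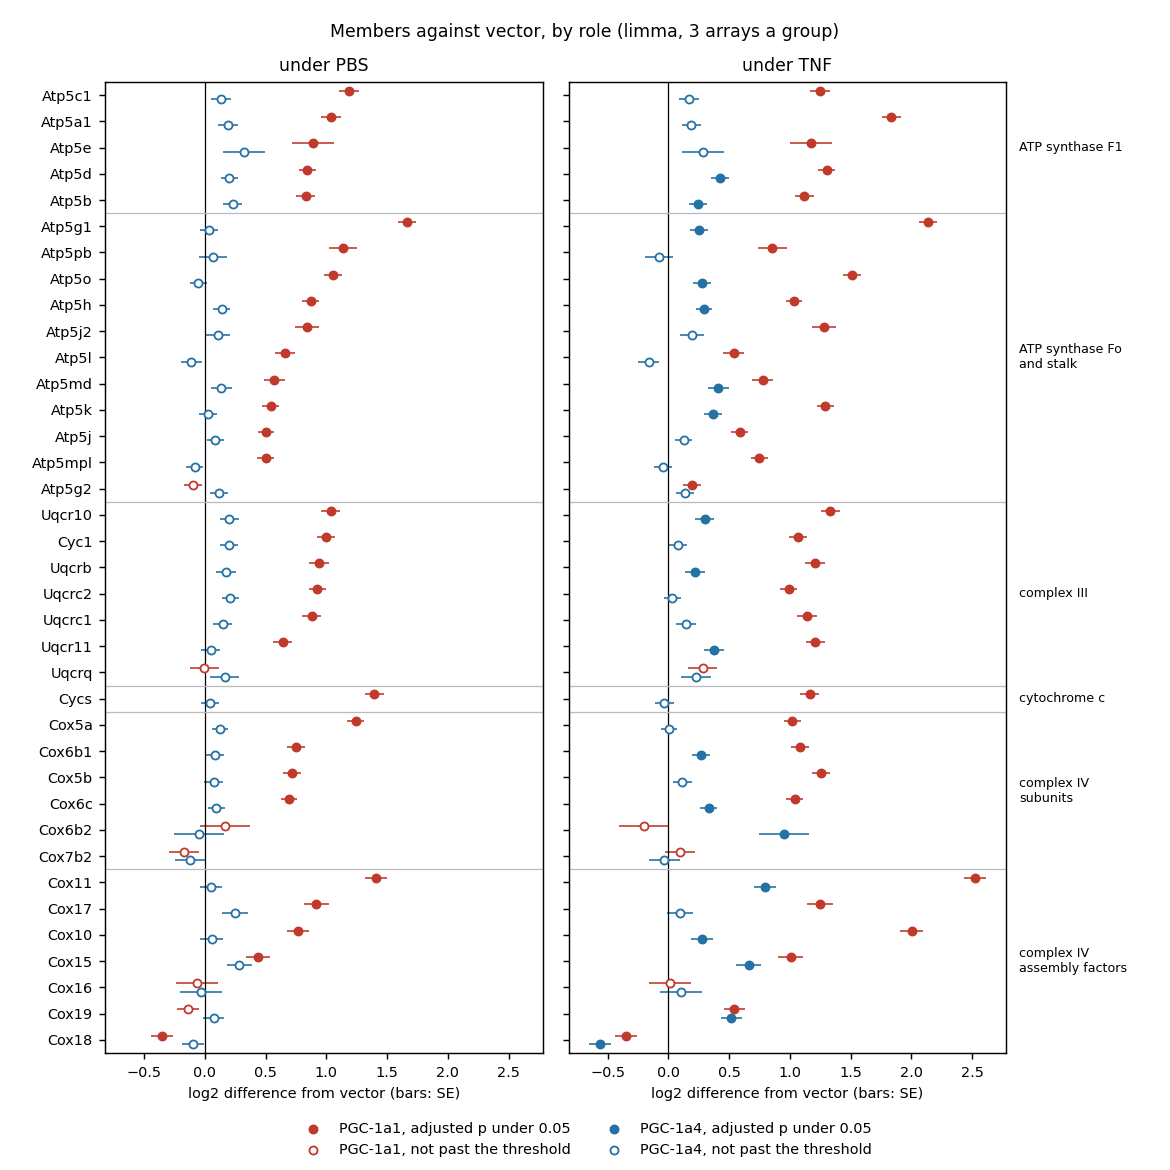
Log2 difference from vector (x axis, bars are SE) of the 37 genes (rows, grouped by role) under PBS (left) and TNF (right), with PGC-1a1 in red and PGC-1a4 in blue, filled where the adjusted p was under 0.05. Under PBS the 30 filled PGC-1a1 points to the right of 0 and the 1 to its left (Cox18) stand against no filled PGC-1a4 point.

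The catalytic head rose as a whole. All 5 F1 genes were higher with PGC-1a1 under PBS, by 0.83 to 1.19. Atp5c1, the gamma subunit that turns as the central shaft, read 12.28, 12.60 and 12.53 on the vector arrays and 13.63, 13.63 and 13.71 with PGC-1a1. The groups did not overlap, and the difference was 1.19 ± 0.08, or 2.28-fold (adjusted p = 2.0e-08). Atp5b, the beta subunit that carries the catalytic sites, had the smallest difference of the 5. It read 13.90, 14.01 and 13.73 with vector and 14.73, 14.67 and 14.72 with PGC-1a1, again without overlap, a difference of 0.83 ± 0.08 (adjusted p = 8.7e-07). The alpha subunit gene Atp5a1 rose by 1.04, the delta subunit gene Atp5d by 0.84 and the epsilon subunit gene Atp5e by 0.89.

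Of the 11 genes of the membrane part and stalks 10 rose, and the exception shares its product with the gene that rose most. Atp5g1 and Atp5g2 are separate genes whose mature protein is the same subunit c, the building block of the rotor ring. Atp5g1 read 11.67, 11.78 and 11.74 on the vector arrays and 13.42, 13.26 and 13.51 on the PGC-1a1 arrays. Every PGC-1a1 array lay above every vector array, and the difference of 1.66 ± 0.07 (3.17-fold, adjusted p = 1.2e-10) was the largest of the 37 under PBS. Atp5g2 read 11.82, 12.06 and 11.90 with vector and 11.82, 11.78 and 11.87 with PGC-1a1. These groups overlapped, and the difference was -0.10 ± 0.07 (95% confidence interval -0.26 to 0.05, adjusted p = 0.52). The other members of the group that rose were Atp5pb (subunit b of the outer stalk, 1.14), Atp5o (OSCP, which ties the stalk to the head, 1.05), Atp5h (subunit d, 0.87), Atp5j2 (subunit f, 0.84), Atp5l (subunit g, 0.66), Atp5md (0.57), Atp5k (subunit e, which helps ATP synthase form dimers, 0.54), Atp5j (the stalk's coupling factor, 0.50) and Atp5mpl (0.50).

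Since these genes moved together, with Atp5g2 apart, their promoters were searched for the letters of motifs known for PGC-1alpha's partner factors. The RefSeq windows (GRCm38.p6) ran from 250 bases before a gene's start to 50 after it, and 28 of the 37 genes had one. The ERR motif TNAAGGTCA was in none of the 28 windows on either strand, against 1.43% of 27025 genes. The NRF1 palindrome, searched on both strands with the fifth base free, was in 6 of the 28 (21.4%), against 5.19% of genes. With A at the free base it reads the same on both strands. Those 6 were Atp5c1, Atp5g2, Atp5h, Atp5k, Atp5o and Uqcrc1, of which all but Atp5g2 rose under PBS. Of the genes whose window held no match, all but Cox16, Cox19, Cox6b2 and Cox7b2 rose as well. Whether a match goes with a rise was not tested. Shown are 150 bases before the start of the subunit c pair and of Atp5h and Atp5k, on the strand of the gene (minus in all 4), with NRF1 matches in capitals. They lie at chr11:96075695-96075844 for Atp5g1, chr15:102671048-102671197 for Atp5g2, chr11:115419920-115420069 for Atp5h and chr5:108434400-108434549 for Atp5k, and the Atp5g1 stretch ends 64 bases before the listed start because a longer transcript covers the bases between.
Atp5g1: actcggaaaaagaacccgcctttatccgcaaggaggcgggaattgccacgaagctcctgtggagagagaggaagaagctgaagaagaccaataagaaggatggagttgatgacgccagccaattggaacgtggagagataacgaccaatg
Atp5g2: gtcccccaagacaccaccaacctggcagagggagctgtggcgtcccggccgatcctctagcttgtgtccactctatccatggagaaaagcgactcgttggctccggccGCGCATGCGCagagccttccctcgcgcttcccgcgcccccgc
Atp5h: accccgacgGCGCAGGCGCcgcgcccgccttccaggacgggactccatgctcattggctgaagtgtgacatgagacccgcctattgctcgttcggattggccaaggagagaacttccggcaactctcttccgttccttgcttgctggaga
Atp5k: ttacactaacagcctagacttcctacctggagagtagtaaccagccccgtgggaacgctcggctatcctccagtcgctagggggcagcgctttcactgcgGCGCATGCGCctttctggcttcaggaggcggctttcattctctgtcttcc
The Atp5g2 and Atp5k matches read GCGCATGCGC, at -42 to -33 and -50 to -41 from the start, while Atp5h matched on the opposite strand at -141 to -132, where it reads GCGCCTGCGC. In the other windows with a match the letters were GCGCGTGCGC (Atp5c1 and Atp5o) and, both in Uqcrc1, GCGCTTGCGC and GCGCATGCGC. The Atp5g1 stretch holds no match. A match is a run of letters, not a shown binding site.

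In complex III 6 of 7 genes rose with PGC-1a1 under PBS, by 0.64 to 1.04. Uqcr10, a small subunit beside cytochrome c1, read 12.42, 12.59 and 12.53 with vector and 13.53, 13.51 and 13.61 with PGC-1a1. The groups were apart, with a difference of 1.04 ± 0.08 (adjusted p = 6.6e-08). Cyc1, cytochrome c1 itself, rose by 1.00, the core proteins Uqcrc2 and Uqcrc1 by 0.93 and 0.88, and the small subunits Uqcrb and Uqcr11 by 0.94 and 0.64. Uqcrq, a small subunit named for ubiquinone binding, was the exception. It read 12.49, 12.84 and 12.63 with vector and 12.76, 12.44 and 12.76 with PGC-1a1, which overlapped fully (difference -0.00 ± 0.12, 95% confidence interval -0.26 to 0.25). Its other 2 probe sets differed by -0.15 and -0.05, neither past the threshold.

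Cycs, the mobile carrier between complexes III and IV, was among the genes that rose most. Its vector arrays read 12.87, 13.07 and 13.01 and its PGC-1a1 arrays 14.37, 14.28 and 14.48. No PGC-1a1 array came within a log2 unit of a vector array, and the difference was 1.39 ± 0.08, or 2.63-fold (adjusted p = 1.9e-09).

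Of the 6 complex IV subunits 4 rose under PBS, Cox5a, Cox5b, Cox6b1 and Cox6c, by 0.69 to 1.24. Cox5a, a matrix-side subunit, read 13.19, 13.38 and 13.28 with vector and 14.51, 14.50 and 14.55 with PGC-1a1, a difference of 1.24 ± 0.07 between groups that did not overlap (adjusted p = 1.8e-09). Cox6b2, the testis form of Cox6b1, and Cox7b2, another tissue-restricted form, were not called. Cox7b2 read 5.35, 5.07 and 5.01 with vector and 4.94, 4.92 and 5.05 with PGC-1a1, overlapping and below the lower quartile of every array (5.96 to 6.05 in the PBS set), with a difference of -0.18 ± 0.12.

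Of the 7 assembly factors 4 rose, 1 fell and 2 were not called. Cox11, which brings copper to the catalytic core, read 9.35, 9.64 and 9.42 with vector and 10.82, 10.78 and 11.04 with PGC-1a1. The PGC-1a1 arrays lay over a log2 unit higher, a difference of 1.41 ± 0.09 (2.65-fold, adjusted p = 1.5e-08). Cox17, a copper chaperone, rose by 0.92, and Cox10 and Cox15, consecutive enzymes of heme A synthesis, by 0.77 and 0.44. Cox18, which helps insert a mitochondrially encoded subunit into the membrane, went the other way. It read 10.45, 10.65 and 10.37 with vector and 10.03, 10.20 and 10.18 with PGC-1a1, a difference of -0.35 ± 0.09 (adjusted p = 0.014). The groups did not overlap, but the call was lost without PGC-1a1 PBS replicate 1 (-0.30) or without Vector PBS replicate 2 (-0.27). Cox19, another copper factor, differed by -0.14 ± 0.09 and Cox16 by -0.06 ± 0.17, neither past the threshold, and the Cox16 mean lay below the lower quartile of the arrays in each group.

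**Figure D2:**
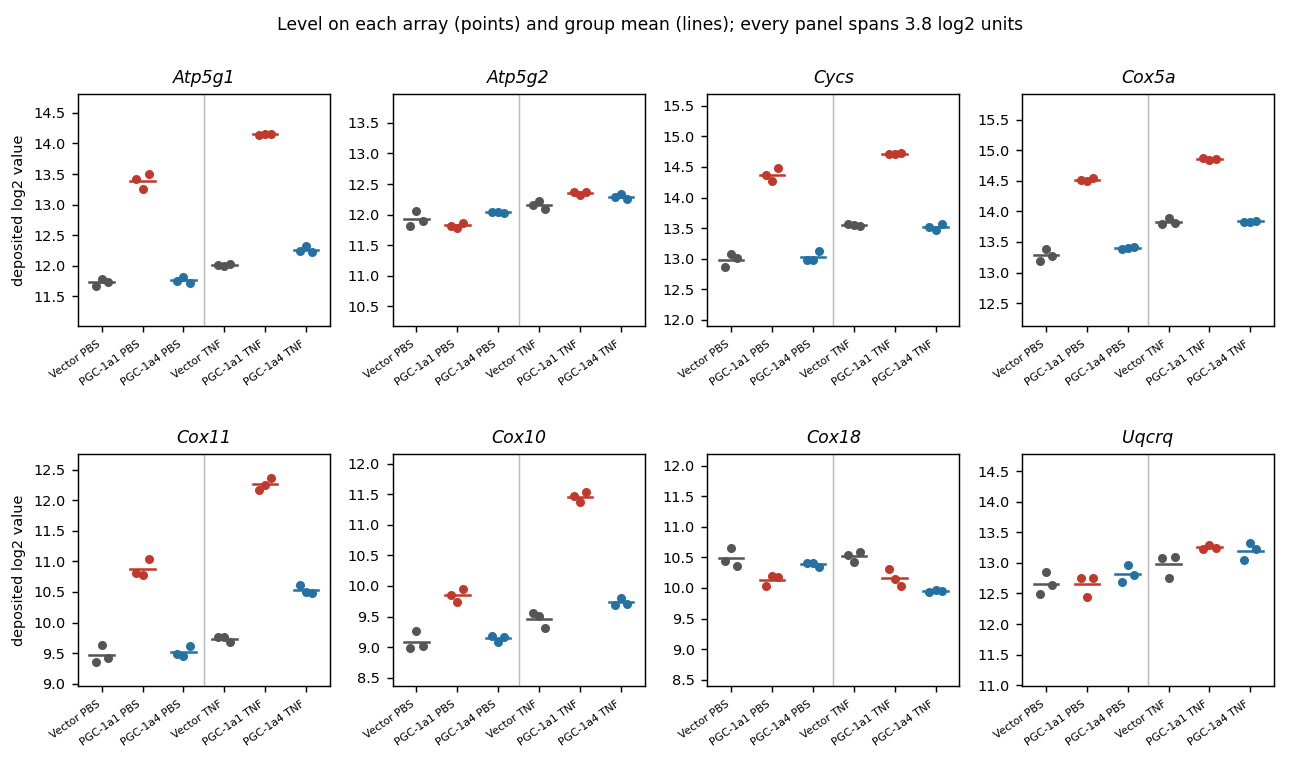
Deposited log2 level (y axis) of 8 genes on each of the 18 arrays (points, 3 a group; lines are group means), PBS groups left and TNF groups right of the grey line, with vector grey, PGC-1a1 red and PGC-1a4 blue. Atp5g1, Cycs, Cox5a, Cox11 and Cox10 stand higher with PGC-1a1 in both treatments, whereas Atp5g2 and Uqcrq overlap with vector under PBS and Cox18 lies lower.

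Most other probe sets were also higher with PGC-1a1. In all, 21 members have several, which adds 28 probe sets. Under PBS 19 of these were higher, none lower and 9 not past the threshold by the same test. Of the 24 on members called higher, 19 were higher. All 14 with a mean level of at least 10 were higher, but that mean includes the PGC-1a1 arrays and so favours probe sets that rose. Probe sets with a suffix that marks possible matches to related transcripts stand for 17 members, and Atp5c1, Atp5k, Atp5l, Atp5pb and Cox5b have named pseudogenes, so the signal of these 5 may include near-identical copies.

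PGC-1a4 called no member under PBS. With limma 0 of 37 passed the threshold, against 0.0775% of all genes higher and 0.129% lower. Of the 37, 8 had an unadjusted p under 0.05, as had 1668 of all 15491 genes. The median difference was 0.09, against -0.02 over all genes, and the arrays lay at 0.09, 0.08 and 0.13 from the vector mean. Under other fits 1 member (Atp5b, trended and robust moderation) or 3 (Atp5b, Atp5e and Cox15, array weights) were called, and without Vector PBS replicate 2 there was 1 (Atp5e, 0.61). The 95% confidence intervals of the 37 differences ran no higher than 0.68 and no lower than -0.48. For Atp5g1 the PGC-1a4 arrays read 11.76, 11.82 and 11.72, inside or beside the vector range, a difference of 0.03 ± 0.07. For Cycs they read 12.98, 12.97 and 13.12, a difference of 0.04 ± 0.08.

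The isoforms were compared directly. Under PBS 29 of 37 genes were higher in PGC-1a1 cells than in PGC-1a4 cells and 0 were lower, against 10.3% and 7.08% of all genes, with a median difference of 0.67. All 29 are among the 30 that PGC-1a1 raised over vector, and Cox15 (0.15 ± 0.10, adjusted p = 0.37) is the one that was not called. Atp5e lost its call without PGC-1a1 PBS replicate 1 (0.55), PGC-1a1 PBS replicate 3 (0.54) or PGC-1a4 PBS replicate 2 (0.44). The 2 comparisons with vector use the same vector arrays, so their agreement or contrast is not independent evidence. The direct difference uses no vector array, but it shares its PGC-1a1 and PGC-1a4 arrays with those comparisons. Its p-values also rest on a spread estimated over all groups, vector included. That the 29 lie among the 30 is therefore not independent evidence either. Atp5g1 had the largest direct difference, 1.63 ± 0.07 (adjusted p = 1.3e-10), followed by Cox11 with 1.36 ± 0.09 and Cycs with 1.35 ± 0.08.

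Under TNF the PGC-1a1 differences were larger for most of these genes. Against vector 32 of 37 were higher and 1 lower, where 20.8% of all genes were higher and 20.5% lower. The median difference was 1.08, with the 3 PGC-1a1 arrays at 1.10, 1.09 and 1.11, against -0.03 over all genes. All 30 members that rose under PBS rose here too, joined by Cox19 and Atp5g2. These TNF arrays are separate from the PBS arrays. Across the 37 genes the differences in the 2 treatments correlated with Pearson's r = 0.82 and Spearman's rho = 0.69, a description over genes that share arrays, and 32 were larger under TNF. Markers of other cells also moved: all 3 measured of 8 macrophage markers were lower with PGC-1a1 under TNF (-0.71 to -0.78), their mean level being 8.39 to 8.65 on the vector arrays, 7.59 to 7.97 with PGC-1a1, 7.77 to 8.06 with PGC-1a4 and 7.62 to 7.93 on the PBS arrays. Among hepatocyte markers Hnf4a was 2.24 higher with PGC-1a1 than with vector under TNF, while in vector cells it differed by -2.78 between the TNF and the PBS arrays. Of other markers, 2 of 7 for stellate cells, 3 of 6 for endothelial cells, 2 of 4 for cholangiocytes and 1 of 4 for lymphocytes and neutrophils were lower and 1 for cholangiocytes was higher, and the part of any of these shifts in the result was not tested.

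The difference of the differences was tested as an interaction. For PGC-1a1 it passed in 15 of 37 genes, all larger under TNF, against 13.4% of all genes in that direction and 12% in the other, and all 15 passed under each of 3 other scalings of the arrays. With the mean of the probe sets Atp5o (0.22, adjusted p = 0.17), Cox5b (0.28, adjusted p = 0.073) and Cox6c (0.28, adjusted p = 0.12) lost the call, while Atp5b, Atp5c1 and Uqcrc2 gained one. Of the 14 other probe sets on the called genes, 4 passed, all larger under TNF. By role these were 2 of 5 F1 genes, 5 of 11 membrane and stalk genes, 1 of 7 in complex III, 3 of 6 complex IV subunits and 4 of 7 assembly factors. Leaving out single arrays gave 12 to 18 calls, and a trended and robust moderation gave 23, of which 2 were smaller under TNF.

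Cox10 and Cox11 had the largest interactions. Cox10 read 8.99, 9.26 and 9.01 with vector and 9.86, 9.74 and 9.96 with PGC-1a1 under PBS, and 9.56, 9.50 and 9.31 against 11.47, 11.38 and 11.53 under TNF. The groups were apart in both treatments, by 0.77 ± 0.09 and by 2.00 ± 0.09, and the interaction was 1.23 ± 0.13 (adjusted p = 2.6e-06). Cox11 read 9.76, 9.77 and 9.69 with vector under TNF and 12.17, 12.25 and 12.36 with PGC-1a1. This was the largest TNF difference of the 37 at 2.52 ± 0.09 (5.75-fold), with an interaction of 1.12 ± 0.13 (adjusted p = 7.7e-06). Atp5g1 rose by 2.14 under TNF, its arrays at 12.01, 12.01 and 12.03 with vector and 14.14, 14.16 and 14.15 with PGC-1a1.

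Atp5a1 and Atp5k followed. Atp5a1 read 13.65, 13.85 and 13.82 with vector under PBS and 13.08, 12.98 and 13.03 under TNF, whereas its PGC-1a1 arrays read 14.79, 14.74 and 14.89 and then 14.86, 14.80 and 14.94. The vector groups were apart and the PGC-1a1 groups overlapped, which gave an interaction of 0.80 ± 0.11 (adjusted p = 5.2e-05). Atp5k read 12.15, 12.10 and 12.07 with vector under TNF and 13.41, 13.40 and 13.39 with PGC-1a1, a difference of 1.29 ± 0.07, against 0.54 ± 0.07 under PBS (interaction 0.75 ± 0.10, adjusted p = 2.9e-05). The second Atp5k probe set had an interaction of 0.59 (adjusted p = 0.0010), but the second Atp5a1 probe set, with a mean level of 7.57, had one of -0.01 (adjusted p = 0.97).

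Cycs and Cox5a did not share this pattern. Their TNF differences were 1.16 ± 0.08 and 1.02 ± 0.07, and their interactions -0.23 ± 0.11 (adjusted p = 0.15) and -0.22 ± 0.10 (adjusted p = 0.11) did not pass. Atp5g2 read 12.16, 12.22 and 12.09 with vector under TNF and 12.38, 12.33 and 12.36 with PGC-1a1. The groups did not overlap, and its difference of 0.20 ± 0.07 passed (adjusted p = 0.041), but the call was lost on leaving out any one of PGC-1a1 TNF replicates 1, 2 and 3 and Vector TNF replicates 1 and 3 (0.16 to 0.21), and under quantile (0.15) and cyclic loess (0.13) scaling. Its interaction (0.30 ± 0.10) was lost on leaving out any of 9 arrays, and those of Atp5j2 and Cox6b1 without any of 6 and 4. Uqcrq differed by 0.28 ± 0.12 (adjusted p = 0.074), while one of its other probe sets was lower (-0.57). Cox18 was lower again, at 10.54, 10.42 and 10.58 with vector and 10.32, 10.15 and 10.03 with PGC-1a1 (-0.35 ± 0.09, adjusted p = 0.0045).

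**Figure D3:**
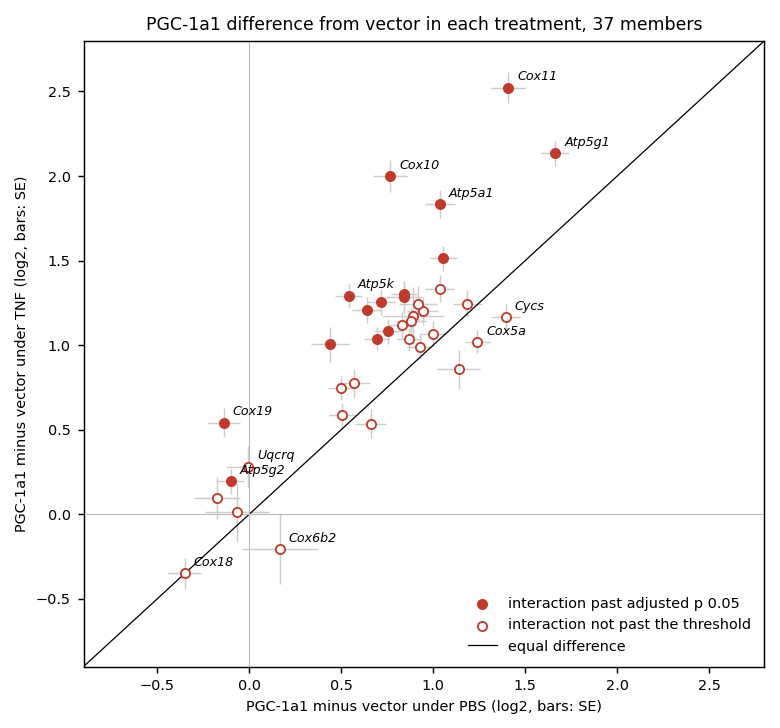
PGC-1a1 minus vector under PBS (x axis) and under TNF (y axis), both as log2 differences with SE bars, for 37 genes, filled where the interaction passed an adjusted p of 0.05. Of the points 32 lie above the line of equal difference and the 15 filled ones all do, with Cox10 and Cox11 farthest from it.

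PGC-1a4 differed from vector under TNF in a part of these genes, by smaller amounts. Of 37 genes 17 were higher and 1 lower, where 21.1% of all genes were higher and 12.3% lower. The median difference was 0.22, against 0.01 over all genes, and the arrays lay at 0.19, 0.21 and 0.23. Here the hepatocyte markers Hnf4a and Apoa1 were 1.70 and 0.39 higher than with vector. Of other markers 2 of 3 for macrophages, 3 of 7 for stellate cells and 2 of 6 for endothelial cells were lower, none of 4 for cholangiocytes and 4 for lymphocytes and neutrophils was called, and their part in the result was not tested. When the estimated fold also had to reach 1.5, 3 remained called in all. The direct comparison of the isoforms under TNF found 30 genes higher with PGC-1a1, against 15.2% of all genes, and 1 lower, against 21.3%. Against vector, the genes called with PGC-1a4 were 2 of 5 F1 genes, 5 of 11 membrane and stalk genes, 3 of 7 in complex III, 3 of 6 complex IV subunits and 5 of 7 assembly factors, the last with 1 lower.

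Among the assembly factors, Cox11 read 9.76, 9.77 and 9.69 with vector under TNF and 10.61, 10.50 and 10.48 with PGC-1a4, apart by 0.79 ± 0.09 (adjusted p = 6.2e-06). Cox15 read 8.89, 8.96 and 8.78 with vector and 9.67, 9.44 and 9.50 with PGC-1a4, also apart, by 0.66 ± 0.10 (adjusted p = 8.6e-05). Cox19 read 11.12, 11.12 and 11.14 with vector and 11.75, 11.67 and 11.52 with PGC-1a4, a difference of 0.52 ± 0.09 beside 0.54 ± 0.09 for PGC-1a1. The copper factor Cox19 thus stood at like distances from vector with both isoforms, and the isoforms differed from each other by 0.03 ± 0.09. Cox18 fell, from 10.54, 10.42 and 10.58 to 9.93, 9.97 and 9.94, without overlap (-0.57 ± 0.09, adjusted p = 1.2e-04). Of the ATP synthase genes Atp5d read 12.23, 12.22 and 12.26 with vector and 12.62, 12.64 and 12.72 with PGC-1a4, a difference of 0.42 ± 0.07 (adjusted p = 1.8e-04). Cycs (-0.03 ± 0.08) and Cox5a (0.01 ± 0.07), which PGC-1a1 raised, were not called with PGC-1a4.

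Under TNF, Cox6b2 was the one gene whose level in PGC-1a1 cells was below that in PGC-1a4 cells (-1.15 ± 0.21, adjusted p = 2.1e-04). It read 6.88, 6.27 and 6.34 with vector, 6.38, 6.78 and 5.71 with PGC-1a1 and 7.55, 7.42 and 7.36 with PGC-1a4. The PGC-1a4 arrays lay above all others, by 0.95 ± 0.21 over vector (adjusted p = 0.0017), while the other 2 groups overlapped. Its vector and PGC-1a1 means lay below the array medians, and the SD over the PGC-1a1 arrays (0.54) was wide.

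Other probe sets bore these PGC-1a4 calls out less often. Of the 10 other probe sets on the genes called higher, 2 were higher and 2 lower. The 2 lower ones both belong to Uqcr10, whose own probe set was higher by 0.30 ± 0.08 (adjusted p = 0.0070) while the others differed by -0.26 and -0.41, so its direction with PGC-1a4 is uncertain. With single arrays left out, Uqcrb, Cox10, Atp5b and Atp5g1 also lost their calls (0.17 to 0.24), for Uqcrb without any of 5 arrays and for the others without 1 or 2. For Atp5g1 and Atp5o the call was lost with the mean of their probe sets, at 0.01 and 0.13.

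The interaction for PGC-1a4 was positive and past the threshold in 5 genes, their PGC-1a4 minus vector difference being higher under TNF than under PBS. It was negative in 1. These are 13.5% and 2.7% of the 37, near the 11.9% and 4.12% of all genes. The median over the 37 was 0.06. It was positive for Cox11 (0.74 ± 0.13, adjusted p = 0.0011), Cox6b2 (0.99 ± 0.29, adjusted p = 0.027) and Cox19 (0.44 ± 0.12, adjusted p = 0.020). For Cox18 it was negative (-0.47 ± 0.13, adjusted p = 0.019), and these 4 passed under each of 3 other scalings. Atp5k (0.30 with cyclic loess) and Atp5o (0.30 with centring) did not keep their calls. With the mean of the probe sets the Atp5o interaction was 0.11 (adjusted p = 0.57). Single arrays moved the count: 1 gene (Cox11) was left without Vector PBS replicate 3, and 3 each without PGC-1a4 PBS replicate 2 or Vector TNF replicate 3.

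TNF against PBS, within one virus, compares the 2 array sets, and its direction for many genes turned on the scaling. As deposited, 17 genes were higher and 6 lower under TNF with vector (34.7% and 36.6% of all genes), 28 and 0 with PGC-1a1 (34.6% and 35%), and 21 and 6 with PGC-1a4 (37.4% and 32.8%). With quantile normalization over all arrays the vector split was 9 higher and 17 lower, with cyclic loess 10 and 19, and with arrays centred on their medians, which moves the median of the genes by 0.21, it was 24 and 3. Of all 15491 genes, 5117 were higher and 5643 lower with quantile normalization, 5206 and 5469 with cyclic loess, and 6870 and 4059 with centring. With PGC-1a1 the split of the 37 was 20 and 5, 14 and 10, and 34 and 0. Over all genes it was 4738 and 5118, 5026 and 4836, and 6906 and 3443. With PGC-1a4 the split of the 37 was 12 and 12, 9 and 15, and 26 and 2. Over all genes it was 5018 and 5276, 5101 and 5161, and 7131 and 3648. Genes named next were chosen after their values were seen, as those with the same call under all 4 scalings. With vector 9 were higher, among them the rotor shaft gene Atp5c1 (0.76 ± 0.08), Cycs (0.57 ± 0.08) and Uqcr11 (1.01 ± 0.08). Atp5a1 (-0.74 ± 0.08), Atp5k (-0.57 ± 0.07) and Cox19 (-0.65 ± 0.09) were lower. With the mean of their probe sets, however, Atp5a1 and Atp5k turned to 0.052 and 0.076, and Atp5c1 fell to 0.076 (adjusted p = 0.43). With PGC-1a1 14 were higher and none lower, and with PGC-1a4 9 were higher and Atp5a1 and Cox18 were lower. How many of all 15491 genes keep the same call under all 4 scalings was not counted. These counts therefore do not show whether the 37 genes differ from the rest.

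**Figure D4:**
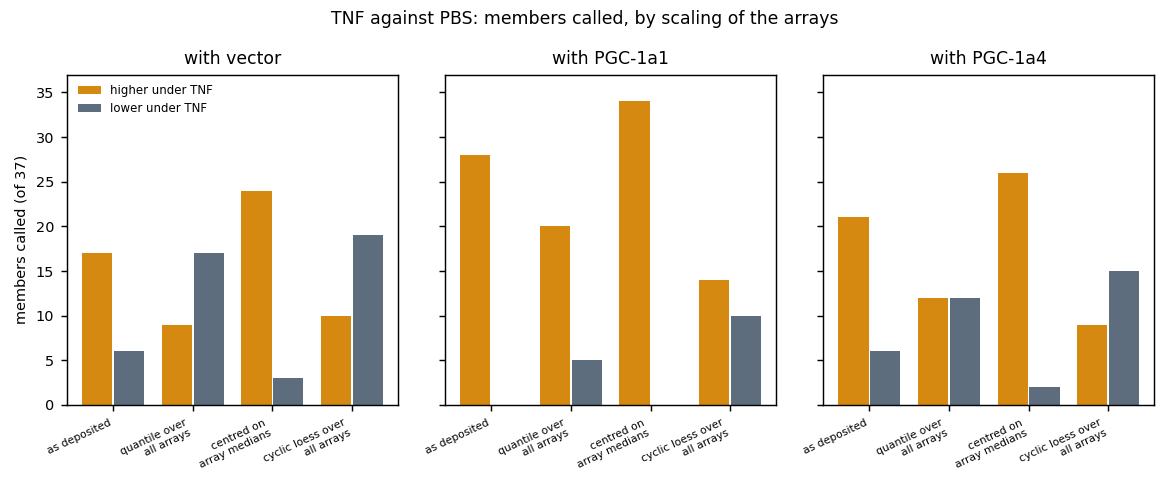
Number of the 37 genes called higher (orange) or lower (grey) under TNF than under PBS (y axis, adjusted p under 0.05) with each virus, for the deposited values and 3 other scalings of the arrays (x axis). With vector the split runs from 24 higher and 3 lower to 10 higher and 19 lower.

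Other genes of the same pathway give the setting. With PGC-1a1 under PBS 28 of 33 complex I subunits were higher and 0 lower, those with the smallest p being Ndufa5 (1.05 ± 0.07) and Ndufb5 (1.08 ± 0.08), and all 4 complex II subunits were higher, with Sdhd, a membrane anchor, at 1.19 ± 0.08 and the iron-sulfur subunit Sdhb at 0.77 ± 0.07. The complex I median of 0.60 and the complex II median of 0.71 stood beside 0.83 for the 37 genes. Of 9 further complex IV subunits 7 were higher and 0 lower. Cox7a1, the heart and muscle form of its subunit, differed by 4.52 ± 0.17, from a vector mean of 5.62, below the lower quartile of the arrays, so the size of this difference is uncertain. Cox8a differed by 0.78 ± 0.07. Of 20 further assembly factors 9 were higher and 1 lower, Hccs, the heme lyase that completes cytochrome c, at 1.28 ± 0.10 and Cmc2 at 1.27 ± 0.09. Among 10 transcription regulators 5 were higher and 0 lower, with the ERR family receptor gene Esrra at 0.97 ± 0.12 and the mitochondrial RNA polymerase gene Polrmt at 0.79 ± 0.07. PGC-1a4 under PBS called 0 genes in each of these 5 lists with limma. An unadjusted p under 0.05 was found in 6 of 33 complex I genes, 0 of 4 complex II genes and 2 of 9 complex IV genes. It was also found in 2 of 20 assembly factors, 1 of 10 regulators and 1668 of all 15491 genes.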

How the data were processed

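Affymetrix arrays were hybridised with biotin-labelled cRNA from 18 hepatocyte samples, per the labels. The deposited values are log2 levels made with RMA and affy, per the submitters' processing notes, with tool versions and joint normalization not given in the sources used here. Large differences are compressed by RMA. The table was held in part: 1 incomplete row of 33246 was dropped. Of 33245 probe sets 25951 name 1 gene, 686 several and 6608 none, by the platform annotation updated by gene identifier (25803 matched) through RefSeq GRCm38.p6.

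A mean for each group was estimated from all 18 arrays with limma 3.58.1 (R 4.3.3, 12 residual and 5.08 prior degrees of freedom), with 9 comparisons of 2 groups and 2 interactions. Tests were two-sided and Benjamini-Hochberg adjusted. The fit was tested on simulated data. Alternatives were other moderation, weights, scalings, probe set rules, thresholds, a replicate block, single-treatment fits and leaving out each array. The members and the lists were chosen with earlier results of these data known. Values on every array are given for the genes with the highest and lowest PGC-1a1 difference under PBS in each role, for subunit c genes, and for up to 4 genes with the smallest p in each PGC-1a4 comparison with vector or interaction. Of each other pathway list the 2 genes with the smallest p are named. Python 3.11.15, pandas 2.3.3 and matplotlib 3.10.9 served for tables and figures. Promoter windows came from RefSeq.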

Additional observations from a re-analysis of the deposited data

Results flagged for a closer look

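For these genes the PGC-1a1 difference from vector was not the same under TNF as under PBS, by the interaction test of limma over 15491 genes (n = 3 arrays a group), each value being the TNF difference minus the PBS difference on the log2 scale. Among assembly factors of complex IV it was 1.23 for Cox10, 1.12 for Cox11, 0.68 for Cox19 and 0.57 for Cox15. Among ATP synthase genes it was 0.80 for Atp5a1, 0.75 for Atp5k, 0.47 for Atp5g1, 0.46 for Atp5d, 0.46 for Atp5o, 0.44 for Atp5j2 and 0.30 for Atp5g2. In complexes III and IV it was 0.57 for Uqcr11, 0.54 for Cox5b, 0.35 for Cox6c and 0.33 for Cox6b1. The adjusted p of these 15 ran from 2.6e-06 (Cox10) to 0.045 (Atp5g2). They were 15 of 37 genes, against 13.4% of all genes in that direction. Atp5o, Cox5b and Cox6c lost the call with the mean of their probe sets.

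For PGC-1a4 the same limma test passed in Cox6b2 (0.99), Cox11 (0.74), Cox19 (0.44), Atp5k (0.34), Atp5o (0.33) and, in the opposite direction, Cox18 (-0.47), with adjusted p from 0.0011 (Cox11) to 0.040 (Atp5o). These 5 positive and 1 negative interactions are 13.5% and 2.7% of the 37 genes. The shares are near the 11.9% and 4.12% of all genes, so the counts do not set these genes apart. Atp5k lost the call under cyclic loess and Atp5o under centring, and without Vector PBS replicate 3 only Cox11 kept it.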

How the results depend on the processing

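The counts for PGC-1a1 against vector and against PGC-1a4 stayed within 1.5 times their value under all alternatives run, at 25 to 32 of 37 and 24 to 32 of 37 under PBS and 29 to 34 and 28 to 32 under TNF. With a minimum fold of 1.5, the calls were 3 for PGC-1a4 against vector under TNF, 9, 15 and 11 for TNF against PBS with vector, PGC-1a1 and PGC-1a4, 5 for the PGC-1a1 interaction and 2 for the PGC-1a4 interaction. Trended and robust moderation gave 23 for the PGC-1a1 interaction and 1 for PGC-1a4 against vector under PBS, array weights gave 3 for the latter, and an adjusted p of 0.01 left 1 for the PGC-1a4 interaction. Leaving out 1 array gave 0 to 1 for PGC-1a4 against vector under PBS, 15 to 17 under TNF, 12 to 18 for the PGC-1a1 interaction and 1 to 7 for the PGC-1a4 interaction. The cause of these shifts was not tested, and leaving out an array also lowers the number of arrays. With the mean of the probe sets 3 values turned: Uqcr10 with PGC-1a4 against vector under TNF (-0.12), and Atp5a1 (0.052) and Atp5k (0.076) for TNF against PBS with vector. Of 5969 single-gene values 5770 kept their side of the threshold, 111 lost the call and 85 gained one. The 5770 include values that changed sign where neither setting called them. For TNF against PBS only genes with the same call under every scaling were counted, so their stability is partly fixed by that choice.

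Over 27 pairs of same-numbered arrays the deviations correlated at -0.14 to 0.23, with 4 above 0.1. With 3 arrays a group this check cannot settle whether replicate numbers pair the samples. With the replicate block the counts were 31, 0 and 29 under PBS and 32, 17 and 31 under TNF (PGC-1a1 and PGC-1a4 against vector, then against each other), 23, 28 and 27 for TNF against PBS with vector, PGC-1a1 and PGC-1a4, and 14 and 6 for the PGC-1a1 and PGC-1a4 interactions. The number of arrays limits small changes, and signal over background was not used here.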

Other observations

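Genes that help assemble the complexes but lie outside the symbols used here also differed under TNF, by the same limma fit. Of 20 measured, 17 were higher and 1 lower with PGC-1a1 against vector, where 20.8% of all genes were higher and 20.5% lower. With PGC-1a4 11 were higher and 1 lower, where 21.1% of all genes were higher and 12.3% lower. The following 2 were chosen after their values were seen. Atpaf1, a factor that helps build the F1 head, was 2.07 ± 0.13 higher with PGC-1a1 and 1.08 ± 0.13 higher with PGC-1a4 under TNF (n = 3 arrays a group). Coa3, an early complex IV assembly factor, was lower with PGC-1a1 under PBS (-0.42 ± 0.09) and higher under TNF (0.44 ± 0.09), with an interaction of 0.86 ± 0.12.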
